A study of Homo sapiens with 12 samples.

Results

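The genes described here are 35 genes that make cholesterol and fatty acids or control that work: 18 enzymes that turn acetyl-CoA into cholesterol, 6 genes of the SREBP control system and 11 genes of fatty acid synthesis, desaturation and elongation. They were chosen by name, from a list of the mevalonate and cholesterol pathway, SREBP regulators and lipogenesis, and all 35 stand among the 26485 genes of the deposited table. BT474 is an established HER2-positive luminal breast cancer cell line, and lapatinib is a small molecule that inhibits the kinases HER2 and EGFR. The study followed BT474 cells under continuous lapatinib by RNA-seq to compare the stages on the way to resistance.

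There were 4 groups of 3 libraries each, all from wild-type BT474 cells grown in RPMI medium with serum. Control cells were taken at day 0, DTP (drug tolerant persister) cells at day 9, DTEP (drug tolerant expanding persister) cells at month 6 and LR (long-term resistant) cells at month 9, with lapatinib at 1 µM renewed at every change of medium. The treatment label of the Control libraries also names lapatinib at 1 µM, but their titles place them at day 0, and they are read here as cells not yet treated. The libraries of a group are called technical replicates in 1 place and parallel plates in another, so n counts libraries, and each p-value measures only the spread between them. The main test pooled that spread over the 4 groups, so DTEP and LR entered the comparison of DTP with Control. All stages descend from 1 line, so that what is particular to its surviving cells and what belongs to a stage cannot be told apart.

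Each library held 16383363 to 25030482 reads assigned to genes, and 1 read was worth 0.0412 to 0.0576 of the normalised units used below. Correlation of log2 values across genes between libraries of a group was 0.997 to 0.998 for Control, 0.983 to 0.996 for DTP, 0.934 to 0.982 for DTEP and 0.971 to 0.984 for LR, so the DTEP libraries were the least alike. The 10 markers of luminal epithelium looked at were read in every group and had summed values of 11456 to 12188 at day 0, 13795 to 16083 at day 9, 5700.2 to 7233 at month 6 and 5788 to 7268 at month 9, or 5099.9 to 5355, 5878 to 6947, 4456 to 5130.0 and 3918 to 5371 without ERBB2. The luminal markers did not move as 1: ESR1, the estrogen receptor, was at 0.211, 0.0553 and 0.194 in LR against 150.3, 153 and 149 in Control, and CDH1 at 75.1 ± 15.3 against 1125 ± 27.2 (SD, n = 3), while GATA3 was at 1251 ± 331 against 190.3 ± 7.64, ERBB3 at 1090.3 ± 55.1 against 384 ± 11 and FOXA1 at 799 ± 137 against 394 ± 12.5. Of the 10 luminal markers, 3 were higher and 5 lower in LR than in Control by the test defined below. The shares of all genes were 16.9% and 19.6%. A list of 13 markers of other cell types had sums of 64 to 75.2, 62.8 to 74.7, 86.4 to 139 and 103 to 133 from day 0 to month 9, with the T cell gene CD3E at 0 in all 12 libraries. Most of the sum was the collagen gene COL1A1, at 55.3 ± 5.63, 54.4 ± 5.71, 99.8 ± 20.7 and 111 ± 17.2. The adipocyte gene PLIN1 was at 1.74 ± 0.141 in Control and 7.18 ± 0.519 in DTP, and the hepatocyte gene ALB at 0.686 ± 0.157 and 3.78 ± 0.302. Only 5 of the 13 were high enough to be tested. Of these, 2 were higher and 1 lower into DTP, and 0 higher and 2 lower into DTEP. The shares of all genes were 9.24% and 15.8% into DTP, and 22.4% and 19.5% into DTEP. All libraries come from cultures of 1 cell line, and what moved these genes was not tested. The proliferation gene MKI67 had a mean of 224 ± 4.84 (SD, n = 3) at day 0, 2.71 ± 0.795 at day 9, 563 ± 87.5 at month 6 and 292 ± 108 at month 9. ERBB2, which encodes the target HER2, had 6526 ± 266, 8545 ± 611, 1627 ± 437 and 1774 ± 190 in the same order. The part of cell division and of ERBB2 in the changes described next was not tested, and in bulk RNA fewer cells of a kind and less RNA per cell cannot be told apart.

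Cells build cholesterol from acetyl-CoA by way of mevalonate, squalene and lanosterol, and build fatty acids from the same precursor by way of malonyl-CoA. Most of these genes are targets of the transcription factors SREBP-1, encoded by SREBF1, and SREBP-2, encoded by SREBF2. Both factors are made as membrane proteins that SCAP carries out of the endoplasmic reticulum when sterols are low, while INSIG1 and INSIG2 hold SCAP back when sterols are high. Growth factor signalling through PI3K, AKT and mTOR, which lies downstream of HER2, is known to raise SREBP activity, and FASN and HER2 have long been studied together in breast cancer.

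As the cells became DTP, 19 of the 34 members tested fell and none rose. SCD, FASN, ELOVL6, FADS1 and FADS2 of fatty acid synthesis, HMGCS1, ACAT2 and SQLE of sterol synthesis, and SREBF1 itself were among those that fell. A member was counted when its limma adjusted p was under 0.05 and its log2 change was beyond 1, where log2 changes are differences of mean log2(value + 1) and understate the change of low genes. Of all 13794 genes tested, 15.8% were lower and 9.24% higher by that rule. The members' median log2 change was −1.18, with a range of −5.05 to 0.83, against −0.01 over all genes. With a limit of 2 on the log2 change, which is the limit that the study used, 7 members were lower and none higher, and 4.92% of all genes passed in either direction. In limma the largest rise of a member was 0.83, so none could pass the limit of 1 at any p. With edgeR and DESeq2 on the recovered reads, 0 were counted higher. By adjusted p alone, 23 members were lower, beside 28.8% of all genes, and 4 were higher, beside 25.2%, namely TM7SF2, NSDHL, SCAP and ACSS2. The libraries of both groups did not overlap for 31 of the 34 members, as for 77.3% of all genes.

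Between DTP and DTEP the members moved both ways. Of the 34, 13 rose, among them SCD, FASN, ELOVL6, SQLE, SREBF1 and INSIG2, and 6 fell, namely TM7SF2, ACSS2, ACACA, ELOVL5, FADS1 and FADS2. Over all genes, 22.4% were higher and 19.5% lower, so the share of members that fell was near that of all genes. The members' median log2 change was 0.79, with a range of −3.44 to 4.45, against 0.08 over all genes. With the limit of 2, 6 members were higher and 2 lower, beside 15.2% of all genes in either direction. By adjusted p alone 20 were higher, beside 35.7% of all genes, and 6 lower, beside 32.6%. Leaving out DTEP replicate 2 reduced the members that rose to 8, since IDI1, MSMO1, SC5D, DHCR7 and INSIG1 then had log2 changes of 0.91 to 1.00, and leaving out DTEP replicate 3 raised them to 19, and the count that fell was 5 or 6 whichever library was left out. This comparison and the one before it share the DTP libraries, so a DTP library that is low by chance would lower the first and raise the second.

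Between DTEP and LR no member passed the limit in either direction by limma, while 1.45% of all genes were higher and 2.5% lower. At an unadjusted p under 0.05, 1 member was higher and 1 lower beyond the limit, edgeR counted 0 and 1, and DESeq2 counted 1 and 2. None passed the limit of 2, as did 0.681% of all genes. The median log2 change was −0.33, with a range of −1.23 to 1.15, against −0.07 over all genes. These counts turn on DTEP replicate 3, which was the lowest DTEP library for 28 of the 34 members: without it 7 were lower and 1 higher, and the median was −0.72. Leaving out LR replicate 1 gave a median of −0.21, and leaving out replicate 1 or 2 of DTEP gave −0.18 or −0.10.

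Set against Control, 4 members were higher in DTEP, where 15.1% of all genes were, and 8 were lower, where 16.4% of all genes were. In LR, 3 members were higher, beside 16.9% of all genes, and 11 were lower, beside 19.6%. With the limit of 2, 5 members passed in DTEP and 7 in LR, beside 10.6% and 12.8% of all genes. The differences of HMGCS1 and TM7SF2 between DTEP and Control were −0.64 and −0.99 without DTEP replicate 3, inside the limit. The members' median log2 change from Control was −0.19 in DTEP and −0.54 in LR, against 0.02 and −0.03 over all genes. The DTEP median turned to 0.18 without DTEP replicate 3 and was −0.46 without DTEP replicate 2. By adjusted p alone 5 members were higher in LR than in Control, beside 30.2% of all genes. As a share of all normalised values, the 35 members together made up 0.836 to 0.857% at day 0, 0.378 to 0.386% at day 9, 0.394 to 0.702% at month 6 and 0.422 to 0.617% at month 9.

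**Figure D1:**
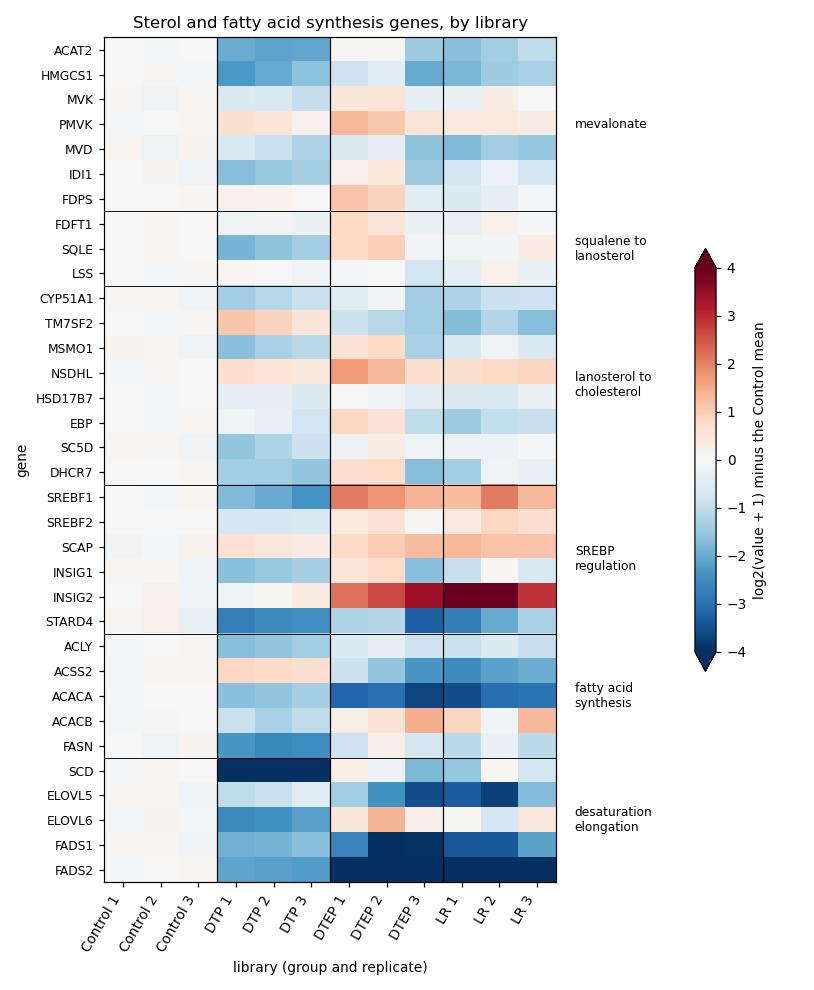
Log2(value + 1) of each of the 34 tested members in each of the 12 libraries, minus the gene's Control mean, with genes in the order of their roles and colours that end at ±4. The DTP columns are lower than Control for most genes, DTEP replicate 3 is lower than the other DTEP libraries for most sterol genes, and FADS1, FADS2 and ACACA stay low to the end.

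The genes that control the pathway are described first. SREBF1 (Entrez gene 6720, chr17:17811334-17836986 in GRCh38.p14) encodes SREBP-1, which drives fatty acid synthesis genes. Its values were 111, 103 and 115 for Control, 31.3, 26.4 and 20.7 for DTP, 463, 377 and 282 for DTEP and 261, 463 and 273 for LR. Every DTP library was below every Control library, and every DTEP and LR library was above them. The log2 change was −2.05 ± 0.24 (SE, limma adjusted p = 3.41e-05) from Control to DTP and 3.78 ± 0.24 (SE, limma adjusted p = 8.08e-08) from DTP to DTEP, which in means is 4.21-fold lower and then 14.3-fold higher. Between DTEP and LR it was −0.19 ± 0.24 (SE, limma adjusted p = 0.578), and LR stood 3.02-fold above Control at 1.54 ± 0.24 (SE, limma adjusted p = 0.000128).

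SREBF2 (chr22:41833105-41907305), whose product drives sterol synthesis, had values of 360.0, 356 and 367 for Control, 228, 226 and 236 for DTP, 475, 541 and 369 for DTEP and 465, 639 and 571 for LR. The DTP libraries were the lowest of all and the other groups lay higher, with DTEP replicate 3 close to Control. Its log2 changes of −0.65 ± 0.16 (SE, limma adjusted p = 0.00455) into DTP and 0.98 ± 0.16 (SE, limma adjusted p = 0.000146) into DTEP were both under the limit of 1 in size. SREBF2 thus passed no limit in any of the 5 comparisons, and in LR its log2 difference from Control was 0.61 ± 0.16 (SE, limma adjusted p = 0.00476).

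SCAP, the escort of both SREBPs, had values of 54.8, 57 and 64.6 for Control, 88.5, 81.4 and 73.9 for DTP, 103, 119 and 138 for DTEP and 148, 130.2 and 131 for LR. No group overlapped with Control, and DTP, DTEP and LR were all above it. Its log2 change was 0.46 ± 0.14 (SE, limma adjusted p = 0.0136) into DTP, 1.01 ± 0.14 (SE, limma adjusted p = 5.19e-05) for DTEP against Control and 1.20 ± 0.14 (SE, limma adjusted p = 1.05e-05) for LR against Control, so that the latter comparisons passed the limit and the first did not. The DTEP call was lost under 5 alternative settings, among them the omission of Control replicate 1, Control replicate 2 or DTEP replicate 3, with log2 differences of 0.90 to 0.99.

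The 2 INSIG genes, whose proteins share the task of holding SCAP back, moved differently. INSIG1, which is itself an SREBP target, had values of 109.9, 108 and 96.6 for Control, 31.9, 36.2 and 41.1 for DTP, 146, 175 and 32.1 for DTEP and 54.6, 108 and 67.8 for LR. DTP was below Control throughout, while DTEP ran from a library at the DTP level to libraries above Control. The log2 changes were −1.51 ± 0.49 (SE, limma adjusted p = 0.0205) and then 1.35 ± 0.49 (SE, limma adjusted p = 0.0263), and both missed the threshold when DTP replicate 1 or 2 was left out, the first also without Control replicate 1 or 2 and the second without DTEP replicate 1 or 2, with adjusted p from 0.0524 to 0.125. Fitted on only the libraries compared, the first change passed and the second did not.

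INSIG2 (chr2:118088471-118110997) had values of 37.2, 41.4 and 32.8 for Control, 32.4, 39.5 and 48.5 for DTP, 170.3, 234 and 393 for DTEP and 768, 795 and 283 for LR. Control and DTP overlapped, and every DTEP and LR library lay above both. INSIG2 was the only member that rose into DTEP after no called change into DTP, by 2.63 ± 0.38 (SE, limma adjusted p = 5.74e-05) or 6.62-fold. Between DTEP and LR its log2 change was 1.15 ± 0.38 (SE, limma adjusted p = 0.0693), which missed the threshold. Without DTEP replicate 3, the highest DTEP library for INSIG2, it was 1.48 ± 0.37 (SE, limma adjusted p = 0.00734). LR stood 16.6-fold above Control at 3.88 ± 0.38 (SE, limma adjusted p = 2.67e-06).

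STARD4, a small protein that carries cholesterol between membranes, had values of 12, 13.2 and 9.13 for Control, 0.835, 1.14 and 1.27 for DTP, 4.26, 4.49 and 0.281 for DTEP and 0.803, 2.05 and 4.02 for LR. Control was the highest group, and DTEP replicate 3 was at 0.281, where 3 reads are worth at most 0.173. Its log2 change into DTP was −2.57 ± 0.50 (SE, limma adjusted p = 0.00105), or 10.6-fold lower in means, and that into DTEP was 0.69 ± 0.50 (SE, limma adjusted p = 0.236).

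Promoter sequence is shown for the members that frame these results, namely SCD as the member with the largest fall into DTP, INSIG1 and HMGCS1 as sterol-responsive genes, and SREBF2 as the only member whose window holds the sterol regulatory element searched for. The windows come from RefSeq on GRCh38.p14, run from 250 bases to 1 base before the annotated start and are written 5′ to 3′ on the strand of the gene. Capitals mark a CCAAT box (CCAAT, or ATTGG where it lies on the other strand), an E-box (CACGTG) or a sterol regulatory element (TCACNCCAC). Windows of FADS2, ACSS2 and the other start of HMGCS1 were also looked at and are not printed. In the 250 bases before the start, those of FADS2 and HMGCS1 held none of these motifs. ACSS2 had a CCAAT box before 1 start and no motif before the other. SCD is at chr10:100346983-100347232 on the plus strand, INSIG1 at chr7:155297628-155297877 on the plus strand, the upstream start of HMGCS1 at chr5:43313413-43313662 on the minus strand and SREBF2 at chr22:41832855-41833104 on the plus strand.
SCD: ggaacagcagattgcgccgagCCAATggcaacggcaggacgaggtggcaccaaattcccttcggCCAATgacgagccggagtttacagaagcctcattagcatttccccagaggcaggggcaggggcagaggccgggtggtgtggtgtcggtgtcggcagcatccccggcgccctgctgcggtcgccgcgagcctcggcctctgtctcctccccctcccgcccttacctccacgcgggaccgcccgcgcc
INSIG1: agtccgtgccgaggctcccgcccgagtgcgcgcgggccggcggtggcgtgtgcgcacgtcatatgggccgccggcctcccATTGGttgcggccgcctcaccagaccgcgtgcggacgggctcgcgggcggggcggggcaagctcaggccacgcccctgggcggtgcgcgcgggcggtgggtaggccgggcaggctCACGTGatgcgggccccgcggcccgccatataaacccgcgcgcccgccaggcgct
HMGCS1: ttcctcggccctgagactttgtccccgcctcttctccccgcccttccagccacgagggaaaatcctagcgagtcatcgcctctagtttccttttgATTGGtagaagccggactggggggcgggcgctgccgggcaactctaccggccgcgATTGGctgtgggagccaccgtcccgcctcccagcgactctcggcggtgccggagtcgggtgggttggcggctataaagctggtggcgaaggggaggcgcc
SREBF2: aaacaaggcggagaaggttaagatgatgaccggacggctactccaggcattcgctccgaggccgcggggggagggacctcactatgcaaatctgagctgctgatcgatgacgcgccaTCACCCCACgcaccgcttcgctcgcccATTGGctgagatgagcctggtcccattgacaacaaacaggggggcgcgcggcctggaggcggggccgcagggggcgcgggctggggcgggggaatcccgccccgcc

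CCAAT boxes, which bind NF-Y, a known partner of SREBPs, were the commonest of these motifs. Of the 35 members, 31 had a promoter window of 250 bases before and 50 after the start, and ACAT2, FASN, FDFT1 and SQLE had none. Searched on both strands, CCAAT was in a window of 24 of the 31 members (77.4%), against 43.4% of the 10688 tested genes with a window and 34.6% of all 35116 windows. It was in 12 of the 16 members with a window that fell in DTP and in 12 of the 15 others. CACGTG was in 5 of the 31 (16.1%), which were ELOVL5, INSIG1, LSS, SC5D and SCAP, against 12.4% of tested genes. TCACNCCAC was in 1 of the 31 (3.23%), against 1.42% of tested genes. A gene with several starts had several windows and so more room for a match, and a match is only a run of letters.

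The enzymes of the mevalonate steps make the isoprenoid units from which sterols are built. ACAT2, the cytosolic thiolase that joins acetyl-CoA units, had values of 88.8, 84.6 and 88.4 for Control, 21.4, 19.6 and 19.8 for DTP, 90.2, 91.1 and 32.2 for DTEP and 26.4, 33 and 42.9 for LR. DTP was below every other library, and DTEP held 2 libraries at the Control level and 1 between. It fell 4.3-fold in means into DTP, a change on the log2 scale of −2.05 ± 0.32 (SE, limma adjusted p = 0.000271), and its log2 change into DTEP was 1.62 ± 0.32 (SE, limma adjusted p = 0.00076).

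HMGCS1, the HMG-CoA synthase of the cytosol, had values of 472, 481 and 447 for Control, 93.3, 115 and 149 for DTP, 260.2, 342 and 115 for DTEP and 130.1, 175 and 189 for LR. All libraries after day 0 were below Control, and DTP overlapped with DTEP. Its log2 change into DTP was −1.99 ± 0.32 (SE, limma adjusted p = 0.000334) and that into DTEP 0.89 ± 0.32 (SE, limma adjusted p = 0.0271), under the limit, and it stayed below Control in LR at −1.52 ± 0.32 (SE, limma adjusted p = 0.0014).

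IDI1, which isomerises the isoprenoid unit, had values of 133, 141 and 119 for Control, 39.5, 45.1 and 50.9 for DTP, 149.7, 176 and 48.3 for DTEP and 79.5, 109.9 and 76.1 for LR. DTP was below Control throughout, and DTEP replicate 3 was at the DTP level while the other DTEP libraries were above Control. The log2 changes were −1.52 ± 0.37 (SE, limma adjusted p = 0.00437) and 1.26 ± 0.37 (SE, limma adjusted p = 0.00933). MVK, PMVK, MVD and FDPS, the kinases, the decarboxylase and the prenyl synthase of the same steps, passed the limit in no successive transition, with log2 changes into DTP of −0.72 ± 0.23, 0.45 ± 0.19, −0.90 ± 0.28 and 0.10 ± 0.32 (SE). MVD was lower than Control in LR at −1.57 ± 0.28 (SE, limma adjusted p = 0.000402).

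Of the enzymes from squalene to lanosterol, SQLE fell and then rose. SQLE, the epoxidase that is a rate-limiting step of sterol synthesis, had values of 142, 147 and 142 for Control, 38.5, 46.4 and 54.1 for DTP, 248, 280.4 and 131 for DTEP and 128, 134 and 180.5 for LR. DTP lay below every other library, 2 DTEP libraries lay above all Control libraries and 1 lay below. It fell 3.1-fold or −1.62 ± 0.25 (SE, limma adjusted p = 0.000223) on the log2 scale, then rose 4.74-fold or 2.16 ± 0.25 (SE, limma adjusted p = 9.77e-06). FDFT1, the squalene synthase, and LSS, the lanosterol synthase, had log2 changes into DTP of −0.20 ± 0.23 and −0.01 ± 0.20 (SE) and passed the limit in none of the 5 comparisons. Their values ranged over all 12 libraries from 158 to 346 and from 90.1 to 174.

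In the steps from lanosterol to cholesterol, CYP51A1, MSMO1, SC5D and DHCR7 fell into DTP while TM7SF2 did not. TM7SF2, a sterol C14 reductase, had values of 163, 158 and 168 for Control, 350.0, 302 and 233 for DTP, 90.2, 73.9 and 61.1 for DTEP and 48.8, 71.8 and 49.7 for LR. DTP was the highest group, and DTEP and LR were below Control without overlap. Its log2 change was 0.83 ± 0.19 (SE, limma adjusted p = 0.00354) into DTP, under the limit, then −1.96 ± 0.19 (SE, limma adjusted p = 3.04e-06) into DTEP, and LR was 2.87-fold below Control at −1.53 ± 0.19 (SE, limma adjusted p = 2.7e-05).

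MSMO1, a sterol methyl oxidase, had values of 77.3, 74.5 and 65.4 for Control, 22.1, 29.1 and 33.2 for DTP, 109, 127 and 29 for DTEP and 46.5, 65.3 and 48 for LR. SC5D, a sterol desaturase, had 55, 56.7 and 49 for Control, 17.4, 22.2 and 29.2 for DTP, 45.5, 65.7 and 46 for DTEP and 45.8, 45.2 and 50.5 for LR. For both genes DTP was below Control without overlap, and for MSMO1 1 DTEP library stayed at the DTP level. The log2 changes into DTP and DTEP were −1.35 ± 0.42 and 1.38 ± 0.42 for MSMO1, and −1.22 ± 0.19 and 1.17 ± 0.19 for SC5D, with limma adjusted p values of 0.0173, 0.0113, 0.000298 and 0.000192. The fall of MSMO1 missed the threshold without Control replicate 1 or DTP replicate 1, at adjusted p of 0.0514 and 0.0702, and the rise of SC5D came to 0.99 without DTP replicate 1. Fitted on only the Control and DTP libraries, the fall of MSMO1 passed.

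DHCR7, the reductase of the last step to cholesterol, had values of 159, 161 and 167 for Control, 62.9, 61 and 53.5 for DTP, 257, 272 and 48.9 for DTEP and 64.6, 142 and 129 for LR. DTP was below Control throughout, and DTEP replicate 3 was below DTP while the other DTEP libraries were above Control. Its log2 changes of −1.44 ± 0.52 (SE, limma adjusted p = 0.0333) and 1.34 ± 0.52 (SE, limma adjusted p = 0.0362) were each lost under 7 of the alternative settings tried, among them the omission of any 1 Control or DTP library for the first, and of any 1 DTP library or DTEP replicate 1 or 2 for the second, with adjusted p from 0.07 to 0.159. With only the libraries compared in the fit, the first change passed and the second did not. CYP51A1, the lanosterol demethylase, fell by 1.14 ± 0.26 (SE, limma adjusted p = 0.00327) on the log2 scale into DTP and had 0.47 ± 0.26 (SE, limma adjusted p = 0.132) into DTEP. NSDHL, HSD17B7 and EBP passed the limit in no successive transition, with values over all libraries of 32.7 to 111, 8.19 to 13.2 and 30.8 to 149.6, and NSDHL was higher in DTEP than in Control at 1.21 ± 0.21 (SE, limma adjusted p = 0.000357) while EBP was lower in LR than in Control at −1.10 ± 0.38 (SE, limma adjusted p = 0.0228). The first was 0.97 without DTEP replicate 1, and the second had adjusted p from 0.0506 to 0.0815 without Control replicate 1, Control replicate 3 or LR replicate 1.

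Counted together, 8 of the 18 sterol enzymes fell into DTP with a median log2 change of −0.81, and none rose, where 15.8% of all genes were lower and 9.24% higher. Into DTEP 6 rose and 1 fell, with a median of 0.61, beside 22.4% and 19.5% of all genes, and into LR none was called, with a median of −0.43. The median over the 18 enzymes of the log2 difference from the Control mean was −0.59, −0.77 and −0.87 in the DTP libraries, 0.33, 0.47 and −0.88 in the DTEP libraries and −0.60, −0.24 and −0.32 in the LR libraries. DTEP replicate 3 was therefore at the DTP level for this arm, while the 2 other DTEP libraries were above Control. Without it, the members lower in LR than in DTEP in limma, INSIG1 of the control genes included, were ACAT2 at −1.41, MVD at −1.09, FDPS at −1.34, MSMO1 at −1.15, EBP at −1.80, DHCR7 at −1.31 and INSIG1 at −1.11 on the log2 scale, and the member higher was INSIG2. That library was singled out because it was lowest for most members, so its omission by itself raises DTEP for them. With all libraries no member passed, and these calls are not separate evidence of a fall.

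**Figure D2:**
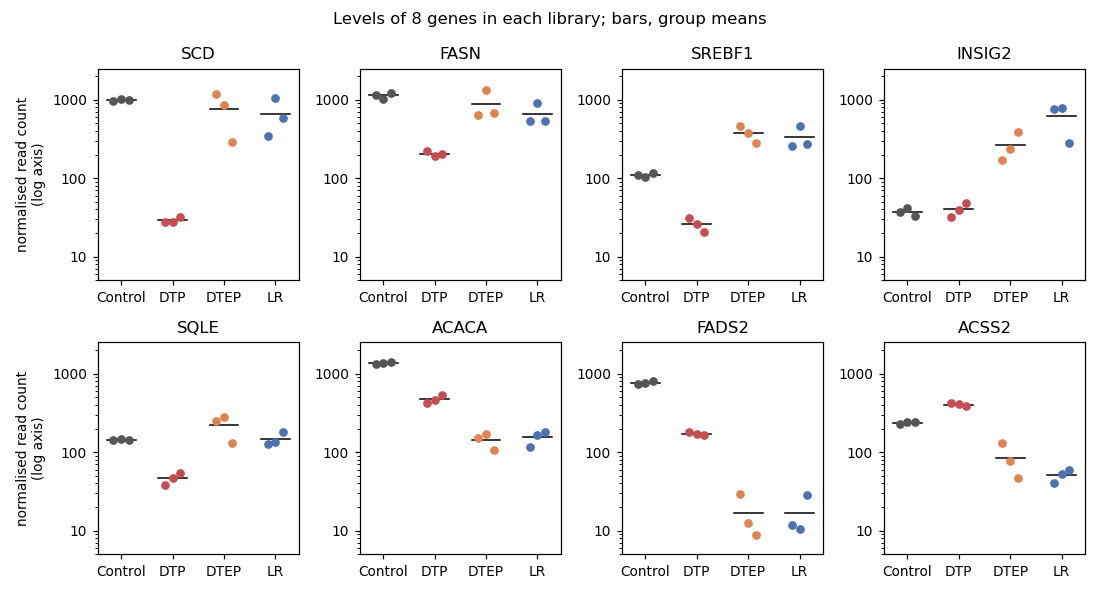
Normalised values of SCD, FASN, SREBF1, INSIG2, SQLE, ACACA, FADS2 and ACSS2 in each library by group, on a common log axis, with bars at the group means of 3 libraries. SCD, FASN, SREBF1 and SQLE drop in DTP and come back, and ACACA and FADS2 drop again in DTEP. INSIG2 is higher in DTEP and LR, which overlap, than before, and ACSS2 is highest in DTP.

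Of the 10 fatty acid genes tested, 8 fell into DTP with a median log2 change of −1.69, then 4 rose and 5 fell into DTEP with a median of −0.33. The shares over all genes were 15.8% lower into DTP, and 22.4% higher and 19.5% lower into DTEP. None was called between DTEP and LR, and 5 were lower than Control in both DTEP and LR, beside 16.4% and 19.6% of all genes. Whether they differed from the sterol enzymes was not tested.

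FASN (Entrez gene 2194, chr17:82078338-82098236), the multifunctional enzyme that assembles palmitate, had values of 1156, 1027 and 1223 for Control, 225, 190.4 and 201 for DTP, 639, 1323 and 684 for DTEP and 536, 919 and 541 for LR. DTP was below every other library, and DTEP held 1 library above all Control libraries and 2 below them, while every LR library was below Control. FASN fell 5.52-fold or −2.46 ± 0.27 (SE, limma adjusted p = 2.61e-05) on the log2 scale, then rose 4.29-fold or 2.02 ± 0.27 (SE, limma adjusted p = 3.71e-05). LR minus Control was −0.81 ± 0.27 (SE, limma adjusted p = 0.0206), under the limit in size.

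ACACA (Entrez gene 31, chr17:37084992-37406836), the acetyl-CoA carboxylase that makes malonyl-CoA in the cytosol, had values of 1329, 1374 and 1395 for Control, 427, 457 and 539 for DTP, 151, 171 and 107 for DTEP and 117, 167 and 179 for LR. Each group was lower than the one before it up to DTEP without overlap, and DTEP and LR overlapped. ACACA changed by −1.53 ± 0.20 (SE, limma adjusted p = 6.67e-05) on the log2 scale into DTP and −1.74 ± 0.20 (SE, limma adjusted p = 8.35e-06) into DTEP, and LR was 8.84-fold below Control at −3.16 ± 0.20 (SE, limma adjusted p = 6.35e-08). FASN thus rose while ACACA, which supplies its substrate, fell further.

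ACACB, the carboxylase of the mitochondrial surface that regulates fatty acid oxidation, had values of 8.65, 9.68 and 9.04 for Control, 4.49, 3.16 and 3.97 for DTP, 10.9, 14.1 and 26.4 for DTEP and 17.5, 8.25 and 23.6 for LR. DTP was lowest and DTEP lay above Control. On the log2 scale it fell by 1.06 ± 0.36 (SE, limma adjusted p = 0.0241), which missed the threshold without any 1 Control library or DTP replicate 2 at adjusted p from 0.0529 to 0.0833, and rose by 1.81 ± 0.36 (SE, limma adjusted p = 0.000665). The fall passed when only the Control and DTP libraries were fitted.

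ACSS2 (chr20:34874989-34927959), which makes acetyl-CoA from acetate, had values of 226, 243 and 243 for Control, 418, 410.5 and 382 for DTP, 129.9, 78.1 and 46.9 for DTEP and 40.3, 52.5 and 59.7 for LR. DTP was above Control and both later groups were below it, with no overlap in either case. Its log2 change was 0.76 ± 0.28 (SE, limma adjusted p = 0.0352) into DTP, under the limit, and −2.35 ± 0.28 (SE, limma adjusted p = 1.23e-05) into DTEP, and LR was 4.67-fold below Control at −2.22 ± 0.28 (SE, limma adjusted p = 2.31e-05). ACLY, which makes acetyl-CoA from citrate, ran the other way, with Control values of 529 to 566, DTP values of 167 to 207 and later values of 289.6 to 419. ACLY fell by 1.56 ± 0.15 (SE, limma adjusted p = 9.56e-06) on the log2 scale and its log2 change into DTEP was 0.98 ± 0.15 (SE, limma adjusted p = 0.000109), just under the limit. THRSP, a lipogenic regulator of liver and mammary gland, was at 0 reads in the 3 DTP libraries, which allows at most 0.173, and at 0.14 to 0.972 in the others, too low to be tested.

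Desaturation and elongation decide which fatty acids are made. SCD (Entrez gene 6319, chr10:100347233-100364826), which makes oleate from stearate, had values of 979, 1031 and 1005 for Control, 27.9, 27.8 and 32.4 for DTP, 1179, 855 and 288 for DTEP and 346, 1066 and 589 for LR. The DTP libraries were far below all others, and DTEP and LR each reached the Control level in 1 library and lay below it in others. Its fall into DTP was 34.3-fold or −5.05 ± 0.46 (SE, limma adjusted p = 6.08e-06) on the log2 scale, the 13th largest fall among the 13794 genes. Its rise into DTEP was 26.4-fold with 4.45 ± 0.46 (SE, limma adjusted p = 3.97e-06), and the log2 difference of LR from Control was −0.74 ± 0.46 (SE) at an adjusted p of 0.179.

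ELOVL6, which elongates palmitate to stearate and so supplies SCD, had values of 37.8, 42.8 and 38.3 for Control, 5.95, 6.42 and 7.95 for DTP, 55.4, 104 and 46.6 for DTEP and 42.2, 24.4 and 54.3 for LR. DTP was below every other library and DTEP was above Control. ELOVL6 fell 5.85-fold with a change on the log2 scale of −2.39 ± 0.31 (SE, limma adjusted p = 6.99e-05) and rose 10.1-fold with 3.09 ± 0.31 (SE, limma adjusted p = 3.18e-06).

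FADS2 (chr11:61816203-61867354), the Δ6 desaturase of polyunsaturated fatty acids, had values of 748, 765 and 796 for Control, 178, 171 and 164 for DTP, 29.3, 12.4 and 8.81 for DTEP and 11.9, 10.6 and 28 for LR. The groups stepped down without overlap from Control to DTP to DTEP, and DTEP and LR overlapped. The log2 change of FADS2 was −2.16 ± 0.38 (SE, limma adjusted p = 0.000603) into DTP and −3.44 ± 0.38 (SE, limma adjusted p = 7.59e-06) into DTEP, and LR was 45.7-fold below Control at −5.56 ± 0.38 (SE, limma adjusted p = 1.52e-07), the largest fall from Control in LR of the 34 members.

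FADS1 (chr11:61799627-61817003), the Δ5 desaturase, had values of 187, 186 and 168 for Control, 47, 48.9 and 55.6 for DTP, 27.9, 10.1 and 10.6 for DTEP and 16.4, 16.1 and 40.2 for LR. It stepped down in the same order, and LR was 7.44-fold below Control. The log2 change of FADS1 was −1.82 ± 0.37 (SE, limma adjusted p = 0.00162) into DTP and −1.73 ± 0.37 (SE, limma adjusted p = 0.00136) into DTEP. The annotated extents of FADS1 and FADS2 share 801 bases on opposite strands, where reads cannot be told apart if counting ignored strand. The methods give the default settings of the counting package and do not state how strand was handled. ELOVL5, which elongates the products of both desaturases, had Control values of 336 to 389, DTP values of 181 to 260 and DTEP values of 30.5 to 140. Its DTP libraries were below Control without overlap, while the SE pools the spread of all 4 groups. The log2 change was −0.79 ± 0.52 (SE, limma adjusted p = 0.22) into DTP and −1.65 ± 0.52 (SE, limma adjusted p = 0.0143) into DTEP, of which the second missed the threshold without DTP replicate 3 at an adjusted p of 0.0517 or without DTEP replicate 3 at 0.0571, and LR was 6.43-fold below Control at −2.94 ± 0.52 (SE, limma adjusted p = 0.000393). The steps of polyunsaturated fatty acid synthesis were thus lower in LR than in Control for each of FADS1, FADS2 and ELOVL5, while SCD and ELOVL6 passed no limit there.

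**Figure D3:**
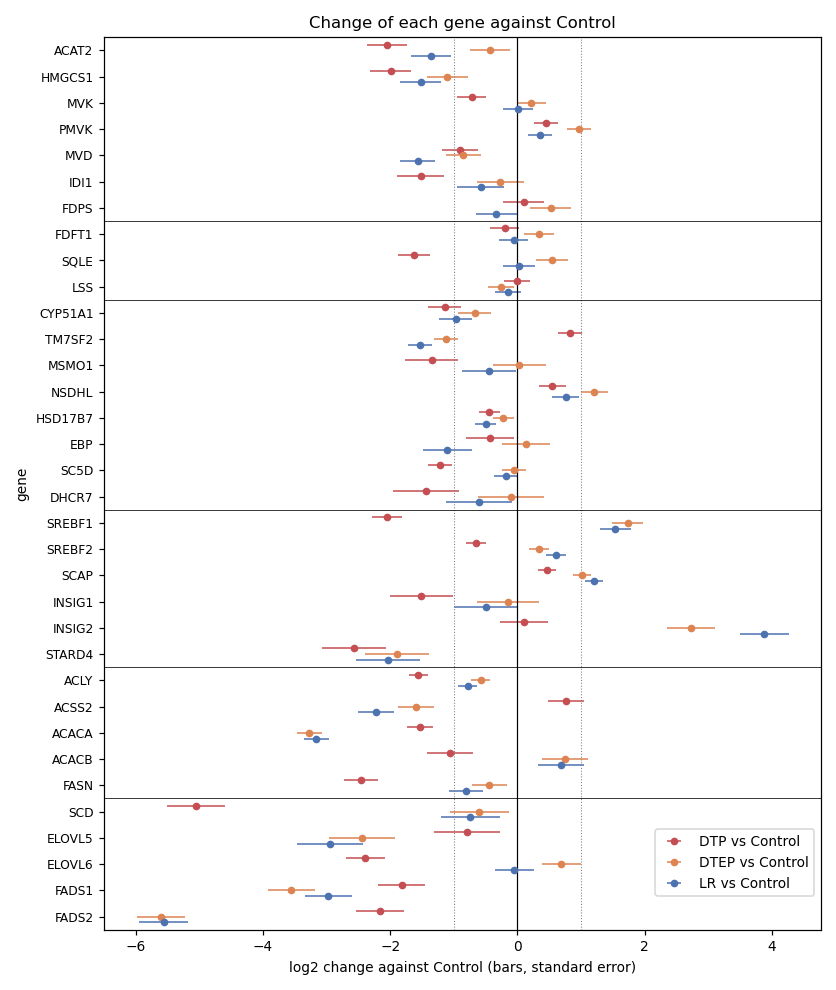
Log2 change from Control of each tested member in DTP, DTEP and LR, with bars of 1 SE and dotted lines at ±1. FADS2, FADS1 and ACACA lie furthest below 0 in DTEP and LR, INSIG2 and SREBF1 furthest above, and SCD is lowest in DTP.

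The share of members that fell between DTP and DTEP was near that of all genes. Chromosomal neighbours of the 6 that fell were read beside those of the other members. The 6 members had 87 distinct tested genes other than members within 500 kb, of which 49 (56.3%) were lower and 8 (9.2%) higher in DTEP than in DTP, with a median log2 change of −1.17. The 13 members that rose had 118 neighbours, of which 21 (17.8%) were lower and 15 (12.7%) higher, with a median of 0.07. The 15 members that did neither had 186 neighbours, of which 37 (19.9%) were lower and 41 (22%) higher. Neighbours of 1 region are not independent, so that no test is given, and what lowers a member and its neighbours was not tested.

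ACSS2 had 13 of 15 neighbours lower with a median of −2.17, TM7SF2 18 of 33, FADS1 11 of 22, FADS2 11 of 23 and ELOVL5 3 of 7 with a median of −0.46, where the windows of the FADS pair overlap and members are not counted as neighbours. Such regions also held members that did not fall, as 11 of the 20 neighbours of ACLY and 4 of the 7 of INSIG1 were lower, and 15 of the 23 of SREBF2 were higher. ACACA had 4 of 9 lower, at a distance of 2281 kb from ERBB2 on the same chromosome. Its neighbours TADA2A, DUSP14, SYNRG and DDX52 had log2 changes of −2.31, −2.73, −2.13 and −1.84 into DTEP, against 0.26, 1.03, −0.34 and −0.23 into DTP, while LHX1 had 2.76 into DTEP. Into DTP 0 of the 9 were lower by limma, when ACACA itself fell. Among the neighbours of the FADS pair, FADS3, RAB3IL1, SYT7 and DAGLA had log2 changes of −3.03, −2.23, −2.12 and −2.32 into DTEP. Those called higher were INCENP at 1.99, FEN1 at 1.00 and, near FADS2 only, ASRGL1 at 2.40.

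**Figure D4:**
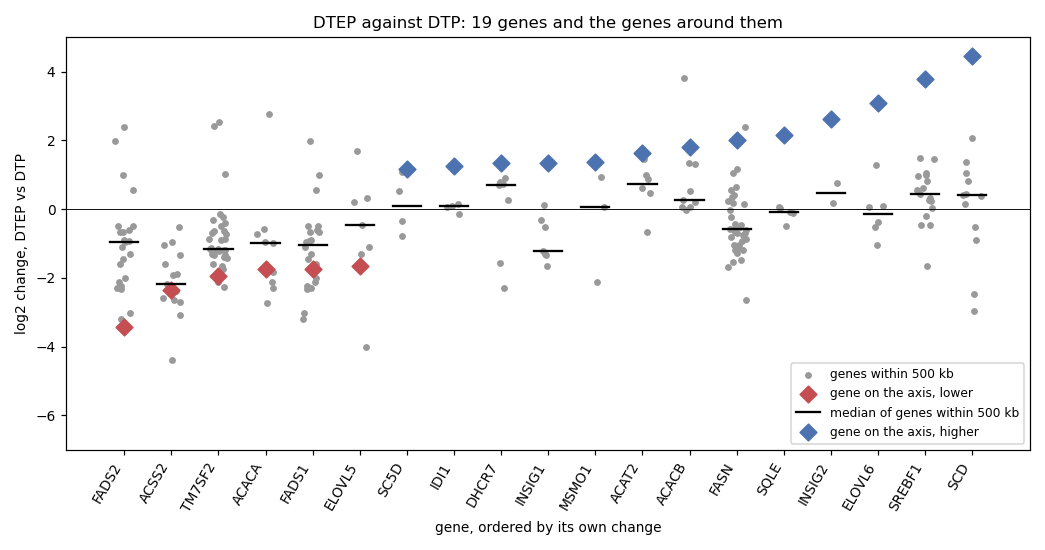
Log2 change from DTP to DTEP of each of the 19 members that passed (diamonds), of the tested genes other than members within 500 kb of it (grey points) and their median (black). The medians beside ACSS2, TM7SF2 and FADS1 lie below −1, as does that beside INSIG1, which rose, those beside FADS2 and ACACA lie at −0.96 and −0.99, that beside ELOVL5 lies at −0.46, and those beside the other members that rose lie between −0.59 and 0.74.

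Genes of the same pathways outside the 35 gave the following counts, to be read against the shares of all genes, which were 9.24% higher and 15.8% lower into DTP, 22.4% and 19.5% into DTEP, and 1.45% and 2.5% into LR. Of 15 further genes of sterol synthesis and the SREBP system, all tested, 1 was higher and 4 lower into DTP, 5 higher and 0 lower into DTEP, and 0 higher and 1 lower into LR. NPC2, which passes cholesterol out of lysosomes, rose by 1.03 ± 0.18 (SE, limma adjusted p = 0.00053) into DTP, and TMEM97, a sterol-regulated membrane protein, fell by 1.10 ± 0.26 (SE, limma adjusted p = 0.0317) into LR, both on the log2 scale.

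Of 26 further genes of fatty acid synthesis, 21 were tested. Into DTP 1 was higher and 7 lower, into DTEP 6 were higher and 3 lower, close to the shares of all genes, and into LR none was called. HACD2, a dehydratase of the elongation cycle, had the largest fall into DTP at a change on the log2 scale of −2.98 ± 0.41 (SE, limma adjusted p = 0.000111), and HSD17B12, a reductase of the same cycle, the largest rise into DTEP at 2.51 ± 0.19 (SE, limma adjusted p = 3.59e-07). ME1, the malic enzyme that supplies NADPH, had the largest fall into DTEP at −3.25 ± 0.29 (SE, limma adjusted p = 1.42e-06). FADS3 was the gene that rose into DTP, at 1.42 ± 0.30 (SE, limma adjusted p = 0.00203).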

How the data were processed

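The deposited table holds normalised gene-level signal for 26485 genes in 12 RNA-seq libraries of BT474 cells. Per the labels and the methods, the authors mapped reads to hg38, counted them per gene with Rsubread 2.0.0 and normalised them, and bcl2fastq and edgeR are also named in the submitters' processing notes. Values were whole multiples of the worth of 1 read in each library (100% of 199680 values above 0, tolerance 0.01), so reads could be recovered. All 12 columns matched a sample.

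The main test was limma 3.58.1 (R 4.3.3), with trend, on log2(value + 1) in a model of 4 groups over 12 libraries, for the 13794 genes that reached a value of 1 in 3 or more libraries. Benjamini-Hochberg adjustment ran over all of them. Genes passed at an adjusted p under 0.05 and an absolute log2 change over 1. edgeR 4.0.16 and DESeq2 1.42.0 were run on the recovered reads. The fit was checked on data simulated with the same spread in every group. That does not test it under the wider spread of DTEP and LR.

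Members and lists were chosen with earlier results of these data known. All members are named, and values in every library are given for those that passed in a successive transition, at most the 4 with the largest change per role, and in any case for SREBF1, SREBF2, SCAP, INSIG1 and INSIG2. Coordinates and promoters are those of RefSeq on GRCh38.p14. Genes overlap SREBF1, ACAT2, MVK, IDI1, FDPS and CYP51A1 among others, and reads there may be shared. In each further list the largest rise and fall were named, except for an item that is not reported here. Precision was limited by 3 libraries a group, and 3 reads are worth 0.124 to 0.173.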

Additional observations from a re-analysis of the deposited data

How the results depend on the processing

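The results were recomputed with other pseudocounts, filters, scalings, tests and limits, and without each library. Of 64 member changes past the limit, 49 kept their direction and their side of the threshold throughout, 15 lost the threshold under at least 1 setting and 0 reversed. No member median moved by more than 0.42, the spread of a library's median, but without DTEP replicate 3 that of DTEP against Control went from −0.19 to 0.18 and that of LR against DTEP from −0.33 to −0.72. By adjusted p alone, 4 members were higher in DTP than in Control, 20 were higher in DTEP than in DTP and 5 were higher in LR than in Control. With a limit of 2, 7 were lower in DTP than in Control, 6 higher and 2 lower in DTEP than in DTP, 1 higher and 4 lower in DTEP than in Control, and 1 higher and 6 lower in LR than in Control. For LR against DTEP, edgeR counted 1 lower, and DESeq2 counted 1 higher and 2 lower. Over all genes, limma called 345 and edgeR 872 lower into LR, and 1274 and 1858 higher into DTP. When each library was left out in turn, members higher in DTEP than in DTP numbered 8 to 19, with the 8 without DTEP replicate 2, and members of LR against DTEP numbered 0 to 1 higher and 0 to 7 lower, with the 7 without DTEP replicate 3. The cause was not tested. With a replicate block the counts were 0 higher and 19 lower into DTP, 13 and 6 into DTEP and 0 and 0 into LR. The block moved no count. Deviations of libraries with the same number correlated from −0.441 to 0.359, so the numbers were not taken to pair the libraries.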

Other observations

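Genes that export or store lipid gave the following counts, with changes on the log2(value + 1) scale. Of all genes, 9.24% were higher and 15.8% lower into DTP, 22.4% and 19.5% into DTEP, and 1.45% and 2.5% into LR. Of 10 genes of the LXR receptors and of sterol efflux, 7 were tested, of which 1 was higher into DTP, 2 higher and 1 lower into DTEP, and none was called into LR. SMPDL3A, a phosphodiesterase known as an LXR target, rose by 1.95 ± 0.18 (SE, limma adjusted p = 5.79e-06) into DTP and fell by 2.28 ± 0.18 (SE, limma adjusted p = 4.03e-07) into DTEP. ABCG1, a sterol exporter and LXR target, had values of 16.7, 16.9 and 18.2 for Control, 16.2, 15.6 and 16.5 for DTP, 57, 69.4 and 227 for DTEP and 187, 256 and 126 for LR. DTP lay just below Control, and every DTEP and LR library lay above them, with a log2 change into DTEP of 2.51 ± 0.41 (SE, limma adjusted p = 0.000165).

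Of 22 genes of lipid storage and uptake, 15 were tested. Into DTP 2 were higher and 5 lower, into DTEP 7 higher and 3 lower, and into LR 0 higher and 1 lower, to be read against the same shares of all genes. VLDLR, a lipoprotein receptor, fell by 1.51 ± 0.22 (SE, limma adjusted p = 0.000165) and AGPAT2, an acyltransferase of triglyceride synthesis, rose by 1.25 ± 0.23 (SE, limma adjusted p = 0.000692) into DTP. PNPLA3, a lipid droplet protein and known SREBP-1 target, had values of 1.93, 1.85 and 1.26 for Control, 0.104, 0 and 0.0576 for DTP, 23.6, 44.9 and 44.1 for DTEP and 46.8, 74.1 and 39.2 for LR. Its DTP libraries were at or below 3 reads each, so that no fold is given, and its log2(value + 1) change into DTEP of 5.14 ± 0.28 (SE, limma adjusted p = 2.84e-08) depends on the pseudocount. MGLL, a monoglyceride lipase, fell by 3.68 ± 0.71 (SE, limma adjusted p = 0.00059) into DTEP. DGAT2, which completes triglycerides, fell by 1.88 ± 0.51 (SE, limma adjusted p = 0.0462) into LR. Its values were 31.2, 31.4 and 6.12 for DTEP and 4.35, 2.21 and 7.65 for LR. The groups overlapped, with DTEP replicate 3 at the LR level.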
